A study of Saccharomyces cerevisiae with 312 samples.

Results

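The 8 strains described here are budding yeast pool members altered in VPS4, VPS20, VPS24, SNF7, DID2, DID4, VPS60 or BRO1, out of 4125 strains measured. They were chosen by gene name, with their low levels in many screens of these data already known. Their levels and call counts are therefore given as a description, with no test. ESCRT-III is a set of related proteins that polymerise on the membrane of the endosome and pinch off vesicles into its lumen, which carries ubiquitin-marked membrane proteins to the vacuole for breakdown. Upstream ESCRT complexes gather this cargo, and ESCRT-II starts the ESCRT-III polymer through Vps20. In yeast, loss of the pathway leaves membrane cargo in an enlarged compartment beside the vacuole, and a branch of it that ends at ESCRT-III also switches on the Rim101 response to alkaline pH.

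The data are genetic interaction mapping screens, in which pooled, barcoded haploid strains receive a query mutation by crossing and the double mutants grow together. The series holds 312 arrays of 304 screens with 154 query mutations: 139 deletions (DEL), 11 DAMP alleles, which destabilise a transcript, and 4 TETO2 alleles, which place the gene behind a repressible promoter. Populations grew for 18 generations under G418 and nourseothricin, and barcodes of the query population (Cy3) were set against those of a reference population (Cy5). The reference was 1 of 31 pools, either a mix of deletions (252 arrays) or a single YEL068C (59 arrays) or YPR014C (1 array) deletion, and every population is labelled as the same kind of strain pool. Of the queries, 133 had 2 screens, 4 had 3, 3 had 4 and 14 had 1. The labels do not state that the screens of a query came from separate cultures, so their spread may be technical. Each value is a log2 ratio of query over reference for a strain, centred on the array's median. A negative value means a lower share of that strain in the query population. Growth of single strains was not measured, and the kind of alteration carried by each pool strain is not given in the sources used here.

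Arrays held values for 3290 to 4125 strains, with medians from -0.19 to 0.48 before centring. No label gives the sign of the ratios, so it was taken from linkage: strains altered near the query gene are lost from a cross, and on 17 arrays of 2 reference pools these strains stood above 0, so those arrays were turned. They carry 13 queries, of which 4 were screened on turned arrays alone. Those 4 are UBP8 and 3 queries of the ubiquitin and protein quality control class (DMA1, HRD1 and UBC11). OPI1 had 1 of its 2 screens on a turned array.

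All 8 strains passed the filter of a value on at least 80% of arrays. VPS4 and BRO1 were each read from 1 array feature and the other 6 strains from 2, whose values correlated across arrays with r from 0.908 (DID2) to 0.972 (VPS60). Linkage also served as a check of identity, since a strain should be lost when the query lies beside its own gene. The VPS20 strain read -9.67 and -9.45 in the 2 screens of NAM7, which lies 3 genes away. The SNF7 strain read -8.50 and -7.48 with IRC25, 4 genes away. The DID4 strain read -7.53 in the single screen of CAP1, 7 genes away, and the BRO1 strain -3.90 and -2.87 with NOG1, 9 genes away. Over the 8 strains, the 5 pairs within 10 genes had a median of -7.99, the 10 pairs at 11 to 30 genes -2.03, and the 22 pairs at 31 to 100 genes -0.55. DID2, VPS60 and VPS24 had no pair within 10 genes, so the check was weaker for them. VPS4, read from 1 feature, had only a pair at 63 genes, so its identity was not checked by linkage or by a second feature. The nearest query was NAP1 for DID2 (13 genes, mean -3.34) and RPL37B for VPS60 (13 genes, -2.97). It was PAN3 for VPS24 (16 genes, -1.62) and CLB2 for VPS4 (63 genes, -0.25). These 37 linked pairs were left out of everything that follows.

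Of the 1232 pairs of a strain and a query, 1045 had at least 2 screens and were unlinked. A pair was called lower or higher when limma's adjusted p was under 0.05 over all 547925 pairs of the whole table and its size was at least 1 on the log2 scale. The 8 strains were called lower in 219 pairs (21.0% of theirs), where 2.33% of all pairs tested were called lower. They were called higher in 25 pairs (2.39%), where 1.21% of all pairs were. Every screen lay below 0 in 218 of the 219 lower pairs and above 0 in all 25 higher pairs. The exception was VPS60 with the ADE4 query, which read 0.23 and -3.23.

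Calls were spread evenly over the 8 strains and unevenly over the queries. VPS4 was called lower in 31 of 137 queries, and none of the 4081 strains tested in at least 100 queries had more. VPS24 followed with 30 of 135. SNF7 (of 113), VPS20 (of 123) and DID4 (of 133) each had 28. BRO1 (of 136) and DID2 (of 135) each had 25, and VPS60 had 24 of 133. Over all 4081 strains the median was 1 query and the 95th percentile 15. Of 140 queries, 11 gave a lower call for all 8 strains, 20 for at least 7 and 31 for at least 4, whereas 97 gave none. These 31 queries held 204 of the 219 lower calls (93.2%), and their 65 screens lay in 25 reference pools. No query had both lower and higher calls among the 8 strains.

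**Figure D1:**
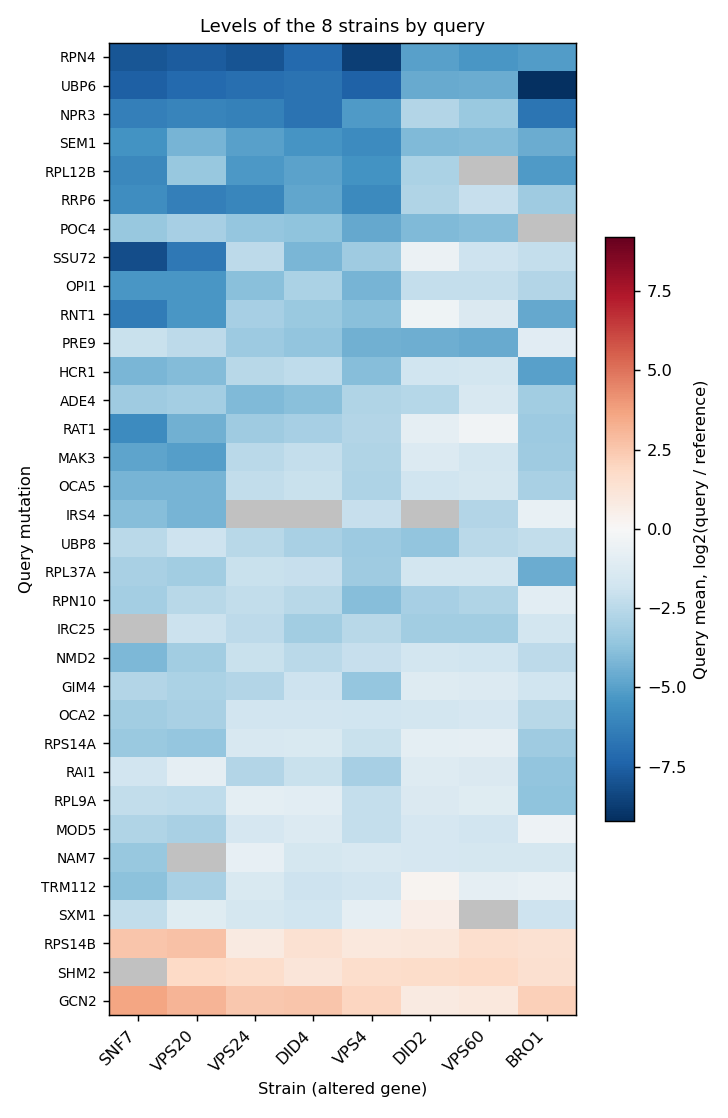
Mean log2 ratio of query over reference (colour, blue below 0 and red above 0) for the 8 strains (columns) in the 31 queries with at least 4 lower calls and the 3 queries with at least 4 higher calls (rows, ordered by mean). Grey marks linked pairs. The RPN4 and UBP6 rows are dark blue for all 8 strains, and the GCN2 row is red, most deeply for SNF7 and VPS20.

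Over all queries tested, the medians of the strains lay near 0. They were -0.17 for VPS4, -0.19 for VPS20, -0.13 for VPS24, -0.10 for SNF7, -0.07 for DID4 and 0.05 for DID2. BRO1 had the lowest median, at -0.39, and VPS60 the highest, at 0.26. The SD between queries ran from 1.22 for DID2 to 2.33 for SNF7, beside a median of 0.335 over all strains. The 2 screens of a query correlated across queries with r from 0.787 (BRO1) to 0.850 (DID2), over 113 to 137 queries. The residual SD between screens was lowest for DID2 (0.475) and highest for SNF7 (1.10), so the larger values of SNF7 carry a larger error.

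Among the core subunits, Snf7 forms the main polymer and Vps20 starts it. The SNF7 strain was lowest with SSU72, a phosphatase of RNA polymerase II that acts in 3′ end formation, at -8.94 and -7.44, which placed it second lowest of the 3984 strains measured with that query. Next came RPN4, the transcription factor of proteasome genes, at -9.18 and -6.50. UBP6, a ubiquitin protease bound to the proteasome, gave -8.14 and -6.88. In each of these the 2 screens stood far below 0. The VPS20 strain read -8.50 and -6.76 with RPN4, -7.80 and -6.49 with UBP6, and -7.25 and -5.95 with SSU72. These overlapped the SNF7 screens for RPN4 and UBP6 and lay above both of them for SSU72. Both strains were also low with OPI1, a repressor of phospholipid genes, where VPS20 read -6.15 and -4.58 and SNF7 read -6.86 and -3.83.

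Vps24 and Did4 (also known as Vps2) join Snf7 and bring in Vps4. The VPS24 strain read -8.83 and -7.03 with RPN4 and -6.75 and -7.15 with UBP6. The DID4 strain read -8.18 and -6.08 with RPN4 and -6.76 and -6.89 with UBP6. The ranges of VPS24 and DID4 overlapped for RPN4 and for UBP6. With NPR3, a subunit of the complex that restrains TORC1 when amino acids run short, DID4 read -7.96 and -5.63 and VPS24 read -6.68 and -5.74.

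Vps4, the AAA ATPase that takes the polymer apart, had its lowest value with RPN4. The VPS4 strain read -10.07 and -7.31 there, a mean of -8.69 ± 1.95 (SD, n = 2 screens), second lowest of 4001 strains. With UBP6 it read -7.10 and -7.75, with SEM1, a small subunit of the proteasome's lid, -4.34 and -7.29, and with RPL12B, a protein of the large ribosomal subunit, -5.51 and -5.50. The RPL12B screens differed by far less than those of RPN4 or SEM1. With RRP6, the nuclear exosome's exonuclease, it read -7.65 and -4.06.

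Did2 and Vps60 act late, at the step where Vps4 is recruited and stimulated. Their strains stood less far below 0. With RPN4, DID2 read -5.77 and -4.25 and VPS60 read -6.25 and -4.42, and they ranked 126 and 115 from the lowest of 4001 strains. With UBP6, DID2 read -4.56 and -4.71 and VPS60 read -4.39 and -4.81, above both screens of each core subunit. With PRE9, a subunit of the proteasome's core particle, both stood near the bottom of the pool: VPS60 read -3.81 and -5.52 (rank 7 from the lowest of 3998 strains), and DID2 read -3.81 and -5.21 (rank 9). DID2 ranked lower still with UBP8, a deubiquitinase of the SAGA complex read from turned arrays alone, at -3.62 and -3.57 (rank 6 of 3981).

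Bro1 binds Snf7 and recruits Doa4, which removes ubiquitin from cargo before it is enclosed. The BRO1 strain was lowest with UBP6, at -9.01 and -9.30, which made it the lowest of the 4038 strains measured there. No other of the 8 strains reached that level in either UBP6 screen. With RPN4 it read -6.55 and -3.76, above both of its UBP6 screens, whereas the RPN4 and UBP6 screens of the VPS4 strain overlapped. With HCR1, a subunit of translation initiation factor eIF3, BRO1 read -4.74 and -5.20, and with RPL37A, a ribosomal protein, -4.59 and -4.48. With PRE9 it read -1.68 and -0.45 and was not called.

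**Figure D2:**
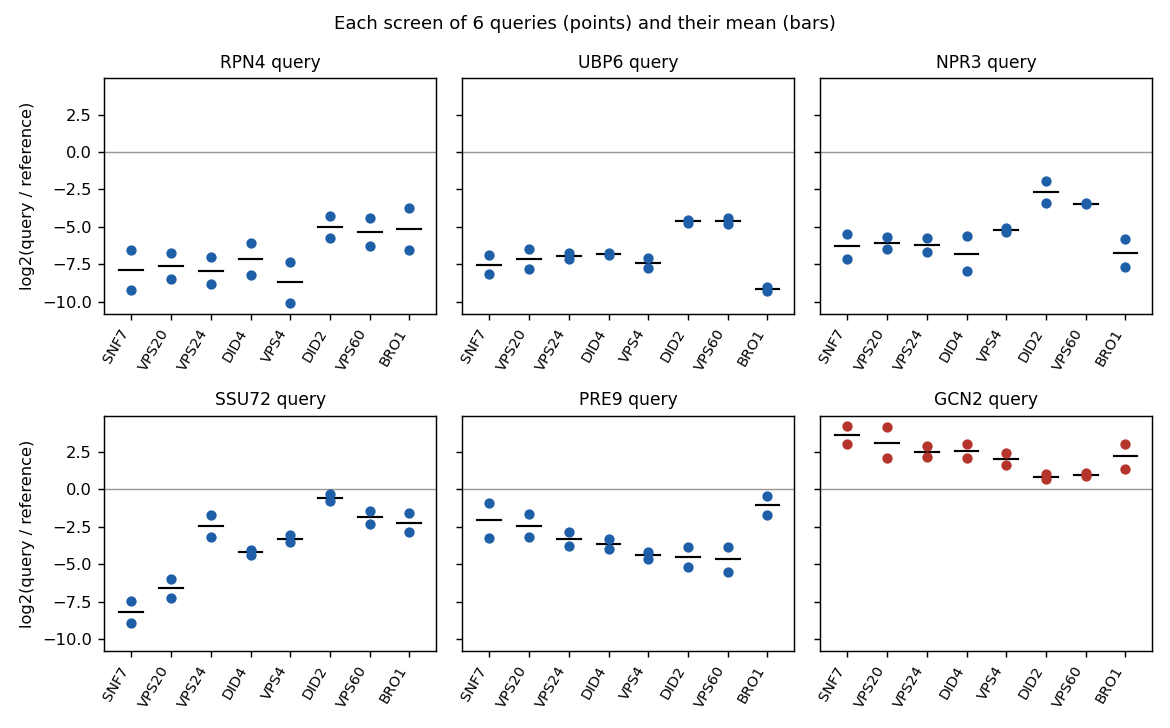
Log2 ratio of query over reference in each screen (points) and the mean (black bars) for the 8 strains in the RPN4, UBP6, NPR3, SSU72, PRE9 and GCN2 queries. BRO1 lies lowest with UBP6 (-9.01 and -9.30), DID2 and VPS60 have the lowest means of the 8 with PRE9 (-4.51 and -4.67), and SNF7 and VPS20 have the means farthest from 0 with SSU72 and GCN2.

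The query population differs from its reference in more than the query mutation when pools differ, so each screen was set beside other screens that used the same reference pool. In the 2 RPN4 screens, VPS4 read -10.07 and -7.31, while the 5 other screens of each pool had medians of -0.78 and -0.35 and lowest values of -5.51 and -3.27. In the 2 UBP6 screens, BRO1 read -9.01 and -9.30, while the 11 other screens of each pool had medians of 0.11 and -0.18. The median over all screens with a mixed reference and with a single-deletion reference was -0.31 and 0.20 for SNF7, the widest difference of the 8, and 0.27 and 0.21 for VPS60. All 8 strains were lower in both RPN4 screens and both UBP6 screens than in every other screen of the same pools. SSU72 stood apart from its pools for fewer strains: in its first screen SNF7 and VPS20 were lower than all 34 others, while 8 others were lower for DID2, 7 each for VPS24 and BRO1, 3 for VPS4, 2 for VPS60 and 1 for DID4. In its second screen no strain was lowest in the pool. There 1 other screen was lower for SNF7 (-7.54 against -7.44) and for VPS20 (-6.06 against -5.95), and 1 to 3 were lower for the rest. In the second RRP6 screen 6 strains were lower than every other screen of the pool, but BRO1 lay -0.28 from the median of the 9 others, 4 of which were lower, and 3 were lower for VPS60. The first RRP6 screen had no other screen in its pool.

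Grouped by the function of the query, 94 pairs of the 8 strains with the 12 proteasome queries were tested and 50 were called lower (53.2%), where 5.5% of all pairs with these queries were. FUB1 and SPG5, other accessory proteasome factors, were not put in this class. With them the means of the 8 strains ran from -0.69 to 0.85, short of the size of a call, so including them would lower this share. Within the class the calls split by query. RPN4, UBP6 and SEM1 gave 8 lower calls each, where 14.6%, 12% and 10.3% of all strains tested were called lower. BRO1 with RPN4 lost its call after quantile normalization (-1.47, from -5.15). POC4, a chaperone of core particle assembly, gave 7 of 7 (background 7.49%), RPN10, a ubiquitin receptor, 7 of 8 (7.81%), PRE9 6 of 8 (6.11%) and IRC25, the partner of POC4, 5 of 7 (3.63%). RPN14, a chaperone of the regulatory particle, gave 1 (0.938%). The regulatory particle chaperones NAS2 and NAS6, the ubiquitin ligase HUL5 and ADD66, another core particle chaperone, gave 0 by limma, where 0.75%, 0.83%, 0.15% and 0.779% of all strains were called lower, and none of their 32 pairs had an unadjusted p under 0.05.

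The mean over proteasome queries minus the mean over all other queries was lowest for VPS4, at -2.69 (-3.22 ± 3.08, SD between 12 queries, against -0.52 ± 1.39 over 141). It was -2.48 for DID4, -2.39 for VPS60, -2.23 for SNF7, -2.20 for DID2, -2.18 for VPS24 and -1.98 for VPS20. SNF7 and BRO1 had 11 of the 12 queries, since IRC25 is linked to SNF7 and POC4 to BRO1. BRO1 had the smallest difference, at -1.54, and was called lower in 3 of 11 of these queries, where VPS4, VPS24, DID2, DID4 and VPS60 were each called in 7 of 12. Without the UBP6 query the BRO1 difference was -0.84. After quantile normalization the 8 differences were smaller, from -1.72 for VPS4 to -0.71 for BRO1.

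The 10 nuclear RNA processing queries gave 35 lower calls of 69 pairs (50.7%, background 4.24%), and here both the queries and the strains separated. RRP6 gave 8 of 8 (background 9.56%), SSU72 7 of 8 (9.58%), RNT1 7 of 8 (6.42%), RAT1 6 of 8 (7.64%) and RAI1, the partner of RAT1, 6 of 8 (2.76%). REX3, an RNA exonuclease, gave 1 of 7 (1.06%). PCF11, TRF5 and REX2 gave 0 by limma (0.0288%, 0.675% and 0.331%), and none of their 22 pairs had an unadjusted p under 0.05. AIR2, with a single screen and no test, lay above 0 for all 8 strains, from 0.49 for BRO1 to 1.99 for SNF7.

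Over the class, SNF7 had the lowest difference from its mean over the other queries, at -2.37, followed by VPS20 at -1.72. The SNF7 value rests on 8 queries and those of the other strains on 10, since REX2 and REX3 are linked to SNF7. VPS20 had means of only -0.59 and -1.48 with REX2 and REX3, so part of the gap comes from the unlike sets. VPS4 stood at -1.26, VPS24 and DID4 at -1.16 each, and BRO1 at -1.10. VPS60 stood at -0.43 and DID2 at -0.20, and the latter turned to 0.046 without the RRP6 query. With RNT1, the nuclear RNase III, SNF7 read -6.95 and -5.89 and DID2 read -0.47 and -0.39. With RAT1, the nuclear 5′ exonuclease, SNF7 read -6.27 and -5.26 and VPS60 read -1.55 and 0.86. With SSU72, VPS20 read -7.25 and -5.95 and DID2 read -0.32 and -0.80. In each of these comparisons the screens of the 2 strains did not overlap. All 4 TETO2 queries of the series (RAT1, RNT1, RRP6 and SSU72) belong to this class, so allele type and function cannot be told apart. A mixed reference pool of 10 screens held 6 screens of RAT1, RNT1, RRP6, SSU72 and NAM7, and SNF7's median over that pool was -3.51. With the reference pool as a block, the class differences were -2.68 for SNF7, -2.31 for VPS20, -0.95 for VPS60 and -0.11 for DID2, and after quantile normalization they were -1.41, -1.04, -0.30 and -0.10.

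**Figure D3:**
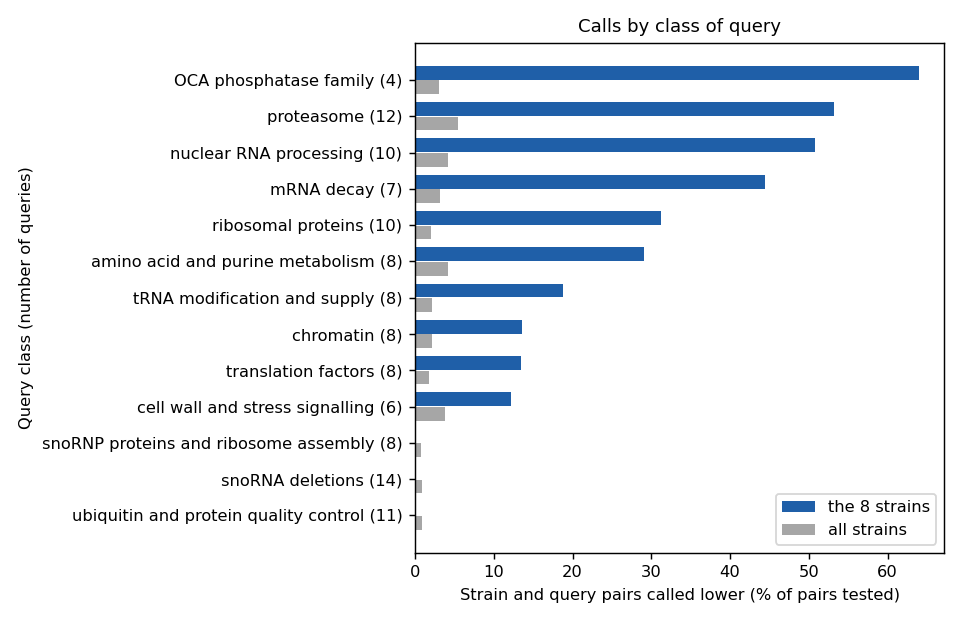
Percentage of strain and query pairs called lower in each class of queries (number of queries in brackets), for the 8 strains and for all strains tested. The 8 strains range from 0% in the ubiquitin, snoRNA and snoRNP classes to 64% in the class of OCA queries. That class is labelled OCA phosphatase family but was grouped by gene name.

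Lower calls also came from other classes, of which those with the highest shares follow. The OCA1, OCA2, OCA5 and OCA6 queries, grouped by gene name and not by a shared activity, gave 16 of 25 pairs (64%, background 3.03%). All of these calls came from OCA2 and OCA5. SNF7 read -5.28 and -3.23 and VPS20 -5.85 and -2.78 with OCA5. The mRNA decay class gave 12 of 27 (44.4%, background 3.2%), most of them from the nonsense-mediated decay factors NMD2 and NAM7. Ribosomal protein queries gave 24 of 77 (31.2%, background 2.03%) and amino acid and purine queries 16 of 55 (29.1%, background 4.16%), from NPR3 and ADE4. The 82 pairs with ubiquitin and protein quality control queries, the 80 with snoRNA deletions and the 63 with snoRNP proteins gave 0 lower calls, where 0.845%, 0.864% and 0.773% of all pairs were called lower by limma. At an unadjusted p under 0.05, 3, 3 and 0 of these pairs lay below 0.

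Among the other queries with 8 lower calls, the spread between screens differed. With RPL37A, VPS24 read -2.07 and -1.95, DID4 -2.08 and -2.15, and VPS60 -1.84 and -1.59. With ADE4, the first enzyme of purine synthesis, the screens disagreed: VPS4 read -0.38 and -5.18, BRO1 -0.38 and -5.97, and DID4 -3.42 and -4.26. For VPS4 and BRO1 the call with ADE4 rests on the second screen. With MAK3, the catalytic subunit of an N-terminal acetyltransferase, VPS20 read -4.55, -4.41 and -6.19 and DID2 read -2.26, -0.47 and -1.11. The MAK3 screens of these 2 strains did not overlap.

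The gap between the SNF7 and VPS20 strains and the DID2 and VPS60 strains was a comparison chosen after the values were seen. Of the 31 queries with at least 4 lower calls, 26 gave a difference in some screen. The mean of SNF7 and VPS20 lay below the mean of DID2 and VPS60 in every such screen of 21 queries, above it in every screen of 3, and on both sides in 2. The widest gaps were -6.18 with SSU72 (-6.77 and -5.59 by screen), -4.99 with RNT1 and -4.51 with RAT1. MAK3 gave -3.44 over 3 screens (-2.34, -3.72 and -4.27). The 3 queries with the opposite order were PRE9 (2.35), UBP8 (0.83) and POC4 (0.69). RPN10 and RAI1 had screens on both sides.

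**Figure D4:**
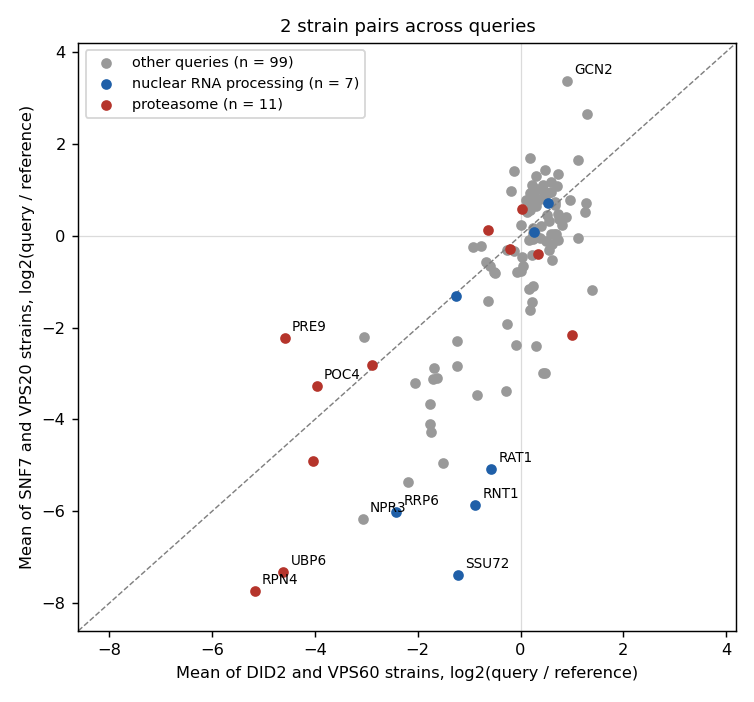
Mean of the SNF7 and VPS20 strains against the mean of the DID2 and VPS60 strains in each query, as log2 ratio of query over reference, with proteasome (11), nuclear RNA processing (7) and other (99) queries in different colours. SSU72, RNT1 and RAT1 lie far below the diagonal, and PRE9 lies above it.

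Higher calls were few. GCN2, the kinase that slows translation when amino acids run short, gave 6 of them, where 6.25% of all strains tested were called higher. SNF7 read 3.02 and 4.19, VPS20 2.12 and 4.13, DID4 2.08 and 3.02, and VPS24 2.14 and 2.87. BRO1 read 1.38 and 3.05 and VPS4 1.60 and 2.41. DID2 (1.02 and 0.66) and VPS60 (1.10 and 0.87) were above 0 in both screens but not called. By their means SNF7 and VPS20 lay farthest from 0 and DID2 and VPS60 nearest, as with SSU72. The VPS20 screens overlapped those of VPS24, DID4, BRO1 and VPS4. Of the 12 other screens that shared the reference pool of GCN2's second screen, none reached the VPS4, VPS20 or BRO1 value of that screen.

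RPS14B, a protein of the small ribosomal subunit, gave 4 higher calls (background 1.55%). VPS20 read 3.42 and 2.01 and SNF7 read 2.56 and 2.61. SHM2, the cytosolic serine hydroxymethyltransferase, gave 4 (background 0.92%), but its screens differed widely: VPS60 read 1.11 and 2.62, DID2 0.80 and 2.63, and VPS4 0.53 and 2.70. PTC1, a type 2C protein phosphatase, gave higher calls for BRO1, VPS60 and VPS24 (background 5.82%). BRO1 was the highest, at 3.46 and 3.54, while VPS60 read 1.45 and 1.88 and VPS24 read 1.74 and 1.38. DID4 read 2.01 and 1.02 and was not called, and VPS4 read -0.70 and -1.11. VPS60 had 9 of the 25 higher calls, among them HTB2, a histone H2B gene, at 1.63 and 1.64. The number of higher calls was 12 when the first screen of each query was left out and 10 when the second was.

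Across queries the 8 strains varied together. Over the 28 strain pairs, Pearson's r of the query means ran from 0.702 (SNF7 with DID2, 110 queries) to 0.978 (VPS20 with SNF7, 108 queries), with a median of 0.864. The next highest were VPS24 with DID4 (0.960, 133 queries), VPS4 with VPS24 (0.947, 132 queries) and DID2 with VPS60 (0.939, 128 queries). As background, Vps20 binds Snf7, Vps24 acts with Did4, and Did2 and Vps60 both act late with Vps4. The strains of a pair share arrays and pools, so the r is a description. With the strains of a pair taken from different screens of each query, the median was 0.740 (0.610 to 0.815), and without the proteasome queries it was 0.825.

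**Figure D5:**
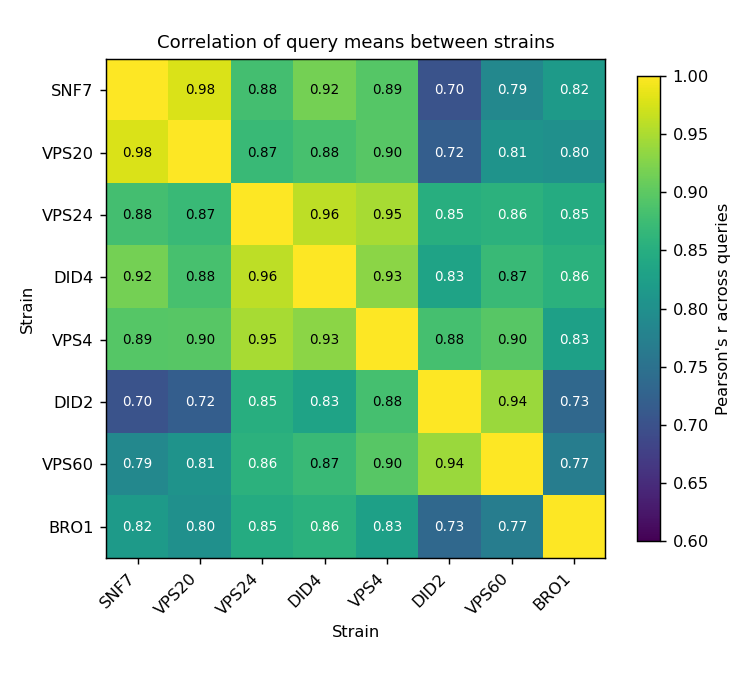
Pearson's r between the query means of each pair of the 8 strains, in colour with the value in each cell. Values run from 0.702 for SNF7 with DID2 to 0.978 for VPS20 with SNF7.

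Strains outside the 8 with the most similar profiles were mostly other members of the same pathway. For VPS20 they were the ESCRT-II strains SNF8 (r = 0.990, 119 queries), VPS36 (0.986, 121) and VPS25 (0.983, 120), and for SNF7 the same 3 in the same order, at 0.984, 0.979 and 0.974. For VPS4 they were VPS38 (0.927) and VPS30 (0.924), subunits of the endosomal phosphatidylinositol 3-kinase complex, and SRN2 (0.910), an ESCRT-I subunit. SRN2 was also nearest to VPS24 (0.937), DID4 (0.934), VPS60 (0.895) and DID2 (0.870), with VPS30 and the ESCRT-0 subunit VPS27 next for VPS24, DID4 and VPS60. DID2's next were VPS30 (0.865) and DCR2 (0.853), whose gene lies 1 gene from VPS38. BRO1 had a different set: DOA4 (0.915, 107 queries), the ubiquitin protease it recruits, DOA1 (0.907), a ubiquitin-binding protein, and VPS27 (0.898). None of these strains lies within 5 genes of the strain it resembled.

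Against the mean of the 8 strains, the 3 ESCRT-II strains had r from 0.931 to 0.939 and 26 to 31 lower calls each. The 3 measured ESCRT-I strains had r of 0.954 (SRN2), 0.946 (STP22) and 0.633 (MVB12), and the ESCRT-0 strains 0.947 (VPS27) and 0.670 (HSE1). VTA1, a cofactor of Vps4, had 0.701 with 17 lower calls and resembled DID2 (0.826) more than SNF7 (0.572). IST1, an ESCRT-III-like protein, had -0.09, with 0 lower and 0 higher calls by limma in 137 queries (3 below 0 and 6 above 0 at an unadjusted p under 0.05). Of the 4081 strains tested in at least 100 queries, 1940 were called lower in no query. The 7 measured Rim101 pathway strains had a median r of 0.693 (0.549 to 0.744) and 5 to 18 lower calls. Over all 4064 other strains the median r was -0.02 and the 95th percentile 0.657, and 160 strains reached 0.7. BUL1, an adaptor of the ubiquitin ligase Rsp5, had 0.80 and 22 lower calls, with -7.95 in UBP6 and -7.88 in NPR3. Of the strains listed with it for ubiquitin recycling at endosomes, RSP5 had 0.84 and 25 lower calls, and DOA4 0.83 and 22. ART5, of the same list, had -0.03 and 0 lower calls by limma, with 0.69 in UBP6 and 0.40 in NPR3.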

How the data were processed

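Barcode DNA of query (Cy3) and reference (Cy5) populations was read on dual-colour arrays, per the labels. The deposited values are ratios of both channels, 1 per feature, taken here as log2 ratios because they run from -14.59 to 16.42. The sources used here do not give their log base, sign, background correction or normalization. Ratios hold no signal level, so a barcode close to background could not be recognised, which limits the ranking of the lowest values. Precision was judged from the spread between screens, which differed between strains.

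The table has 15744 features: 13084 carry 1 gene symbol, 0 carry several, and 2660 carry no symbol and were not used. The R64 annotation held 5098 of the 5100 symbols and was used for names and gene order only, with 64 symbols updated. Features with a value on at least 80% of arrays were kept (8632, giving 4125 strains), averaged per strain, and each array was centred on its median. Arrays were turned where the median of strains up to 25 genes from the query was positive. Arrays of 1 screen were averaged. Pairs within 100 genes were left out. limma 3.58.1 (R 4.3.3) fitted a mean per query with moderated variance, two-sided, with Benjamini-Hochberg adjustment over 547925 pairs. Calls had an adjusted p under 0.05 and lay at least 1 log2 unit from 0. The fit was also run on simulated independent noise with known shifts. That noise held no effects of shared arrays or reference pools, so the run cannot check the calls against these.

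The 8 strains, the query classes and the strain lists were chosen with earlier results of these data known. Queries named per strain are the 6 lowest and 3 highest called pairs with every screen on 1 side of 0, and queries with at least 4 calls in 1 direction, and a few others were named for contrast after their values were seen. Similar strains are the 3 with the highest r over at least 100 queries. Alternatives were arrays as deposited, quantile normalization, scaling by the median absolute deviation, no filter, 1 feature per strain, blocks for reference pool or replicate number, and leaving out a replicate. Replicate numbers did not pair the screens of most queries, although some queries, such as GCN2 and HCR1, shared a reference pool at each number.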

Additional observations from a re-analysis of the deposited data

How the results depend on the processing

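The count of 219 lower pairs ranged from 180 with all arrays as deposited to 219 with the replicate block, with 203 under the reference pool block, 202 after quantile normalization, 211 after scaling by the median absolute deviation, 218 without the filter and 207 with 1 feature per strain. Leaving out replicate 1 or 2 gave 167 and 157, with the lone screen assumed to vary like the others. Over all strains, 1.45% to 2.38% of pairs were called lower in these settings. The count of 25 higher pairs was 24 with the replicate block, 22 as deposited, 19 with the reference pool block and 34 after quantile normalization, and leaving out a replicate gave 10 to 12. Replicate numbers did not pair most screens: the median correlation of their deviations was 0.0115 over 8778 query pairs. Of these, 24.5% exceeded 0.1, and some queries, such as GCN2 and HCR1, shared a reference pool at each number. Pairing within such sets was not tested. The median correlation of 2 strains, 0.864, moved to 0.750 after quantile normalization and to 0.740 with no shared array. The DID2 difference for nuclear RNA queries ranged from -0.34 to 0.046 with each query left out, and reversed without RRP6. The differences of the other 7 strains kept their sign with each query left out. As deposited, VPS20 with OPI1 reversed to 0.79 and DID2 with UBP8 to 3.60, since the sign of their arrays was turned. Of 66 named pairs, 65 kept their direction and call with the replicate block, 60 after quantile normalization, 59 without replicate 1 and 52 without replicate 2; the reference pool block kept 51 of the 59 it could fit. The BRO1 pair with RPN4 lost its call after quantile normalization (-1.47). The cause of these losses was not tested. Fits rest mostly on 2 screens per query, which limits the precision of each value.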

Other observations

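Queries with a single screen were not tested and have no replicate. The 3 lowest values of the 8 strains among them were with the YIL096C query, where the strains differed: DID4 read -5.09, SNF7 -4.36, VPS24 -3.40, BRO1 -1.93 and VPS20 -1.55, while VPS4 read -0.48 and VPS60 0.69. With the FPR4 query, VPS20 read -2.79 and SNF7 -2.38, and VPS4 read -1.30. With the AIR2 query all 8 strains lay above 0: SNF7 read 1.99, VPS20 1.72, DID4 1.55, VPS60 1.52, VPS4 1.22, VPS24 0.90, DID2 0.72 and BRO1 0.49.

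Retromer, which returns sorting receptors from the endosome to the Golgi, had subunits whose lowest query differed. The VPS35, VPS29 and PEP8 strains were lowest with IRS4, a regulator of phosphoinositide levels, at -8.80, -9.93 and -9.10. VPS5 was about equally low with MAK3 (-7.07) and RPN4 (-7.06), and VPS17 was lowest with RPN4 (-5.90). For VPS35, VPS29, PEP8, VPS5 and VPS17 the r to the mean of the 8 strains was 0.883, 0.814, 0.809, 0.873 and 0.845, and they were called lower in 25, 24, 26, 25 and 27 queries.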
